A study of Mus musculus with 6 samples.

Results

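The genes of the acid lysosome examined here encode cathepsins, subunits of the vacuolar H+-ATPase (V-ATPase) and the lysosome-associated membrane proteins (LAMPs), and they were compared between Tomato+ cells derived from injected mesenchymal stromal cells (MSCs) and endogenous articular Tomato+ cells. Members were chosen by matching gene symbols, with earlier results of these data known. This gave 36 of the 17854 genes in the table: 12 cathepsins, 22 V-ATPase genes and 2 LAMPs. *Ctsk*, *Ctsg* and *Atp6v0d2*, which are better known from osteoclasts and neutrophils, were left out by the rule. *Lamp3*, *Lamp5* and *Atp6v1b1* were not among the 17854 genes, and the placental cathepsins were not analysed here.

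The MSC-derived group consists of 3 libraries of Tomato+ cells sorted from the repaired cartilage of male C57BL/6 mice with knee osteoarthritis, induced by transection of the anterior cruciate ligament, whose joints had received *Prrx1*-lineage MSCs of inguinal fat. The endogenous group consists of 3 libraries from mice matched for age and sex, whose genotype was *Prrx1-Cre; R26-tdTomato* and whose own articular Tomato+ cells were used, with no injection of cells and no osteoarthritis named. Osteoarthritis of the host and origin of the cells therefore cannot be told apart. In both groups Tomato marks cells in which Cre from the *Prrx1* regulatory sequence, active in limb mesenchyme, had recombined the reporter, and the mark stays with their descendants. The recipients keep their own blood and joint cells, the study's methods give 3 mice for either group without saying how mice map to libraries, and p-values therefore measure the spread between these libraries only.

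Lysosomes are the compartments in which cells break down what they engulf and what they recycle from their own cytoplasm. The V-ATPase pumps protons into them. Its peripheral V1 sector splits ATP, its membrane-bound V0 sector carries the protons, and several subunits have alternative isoforms encoded by separate genes. The low pH activates the cathepsins, proteases of the cysteine, aspartic or serine class, while the heavily glycosylated LAMPs line the membrane. Lysosomes are abundant in macrophages and other phagocytes, and osteoclasts place the same pump on the cell surface to dissolve bone mineral.

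Expected counts summed to between 22060628 and 24881796 per library, and the floor of 3 counts corresponded to 0.121 to 0.136 counts per 1000000 (CPM), for counting error only. Endogenous replicate 1 stood apart from the other endogenous libraries, with 3449 genes at 0 counts against 1323 and 1375. Both groups are labelled chondrocyte, but all 9 chondrocyte markers checked, among them *Col2a1* and *Acan*, were lower in the MSC-derived libraries, where they summed to 357 to 369 FPKM (fragments per kilobase of transcript, scaled for library size) compared with 12521 to 13337 FPKM in the endogenous ones. All 6 osteoblast and all 8 mesenchymal markers were lower too. All 12 macrophage markers were higher in the MSC-derived libraries, where they summed to 19828 to 20492 FPKM against 365 to 534 FPKM, and none was at 0 in any group. The 8 neutrophil markers, also all higher, summed to 112861 to 120703 FPKM against 3601 to 5973 FPKM, and all 6 leukocyte and all 6 erythroid markers were higher. Of the dendritic cell markers 5 of 8 were higher and 1 was lower, of the T and NK cell markers 5 of 6 were higher, and of the B cell markers 3 of 6. Over all genes tested, the shares called higher and lower were 31.3% and 30.3%. Of 10 osteoclast markers 6 were expressed highly enough to be tested, of which 3 were higher (*Acp5*, *Mmp9* and *Atp6v0d2*) and 1 lower (*Nfatc1*). *Calcr* had 0 counts in the MSC-derived libraries and 0, 0 and 10 in the endogenous ones, and *Oscar* had 0 to 1 against 5 to 47. The part of these cell types in the results that follow was not tested, and in bulk samples more cells of a type and more RNA per cell cannot be told apart.

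Of the 36 members, 34 passed the filter on low counts, and edgeR's quasi-likelihood test called 25 of them higher and 4 lower in the MSC-derived cells, with 0.05 as the limit of the adjusted p. Fold changes are given on the log2 scale ± their standard error (SE) from that test. Among all 14289 genes tested, 31.3% were called higher and 30.3% lower. A called log2 fold change of at least 1 was found in 20 members and in 19.3% of all genes tested. The median log2 fold change was 1.29 over the members tested and 0.05 over all genes tested. Cathepsins had 9 of 12 genes higher with a median of 2.3, V-ATPase genes had 15 of 20 tested genes higher with a median of 1.11, and of the LAMPs *Lamp1* was called higher and *Lamp2* was not called. The lower genes were *Ctsf*, *Atp6v0a4*, *Atp6v0e2* and *Atp6v1c2*. The lowest FPKM of the MSC-derived group lay above the highest endogenous FPKM in 26 members, and the reverse held in 4, where 42.5% and 30.7% of all genes tested did the same. The scale of the values matters for the small changes. The median log2 ratio over all genes tested was 0.17 in FPKM but -0.40 in TPM (transcripts scaled to a fixed sum per library), and limma on log2(TPM + 1) called 21 members higher and 6 lower, and 3124 genes higher and 5962 lower where edgeR called 4468 and 4333.

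**Figure D1:**
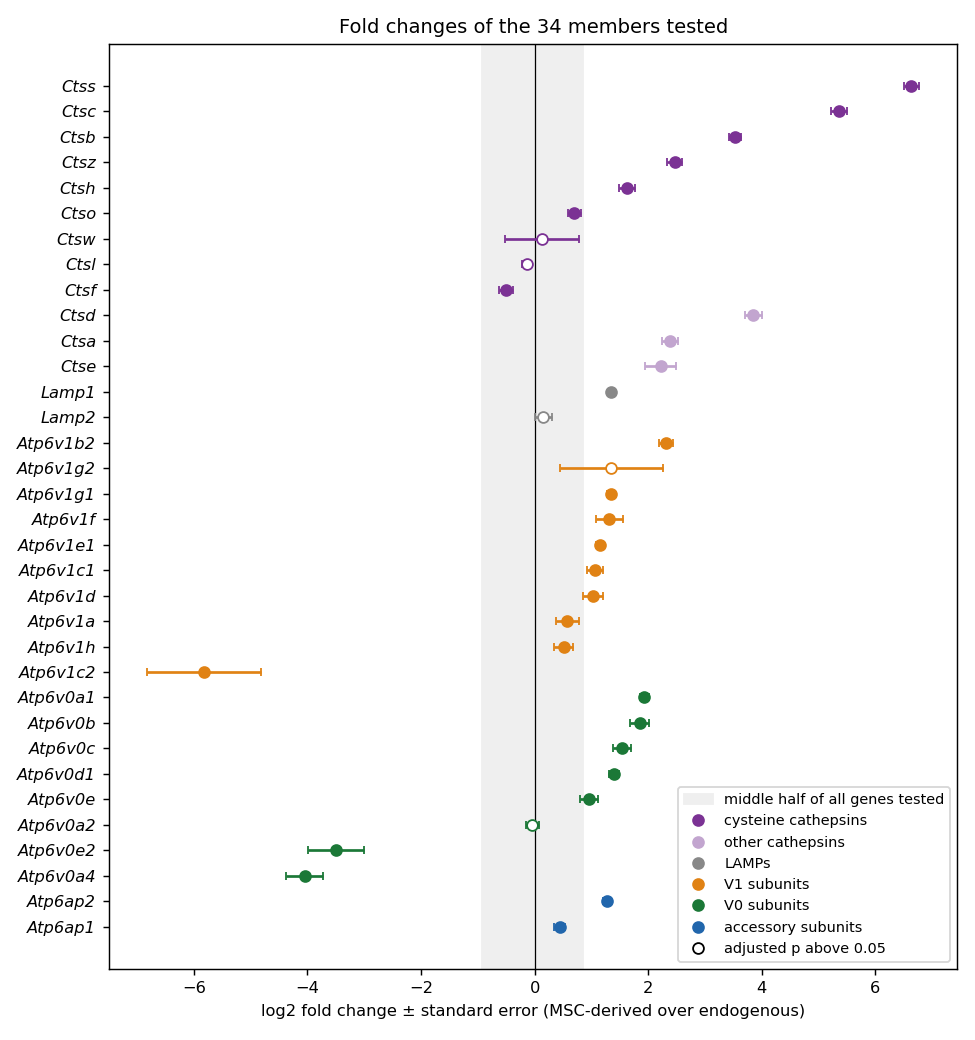
Log2 fold changes of the 34 members tested, with bars for the standard error, points coloured by role, and open points where the adjusted p was above 0.05. The grey band holds the genes tested between the lower and upper quartiles, -0.93 and 0.85. Cathepsins spread from -0.50 to 6.64, while the called higher V-ATPase genes lie between 0.44 and 2.31 and 3 isoform genes lie at -3.50 or below.

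Promoters of lysosomal genes are known for an E-box-like element read by TFEB and related factors, whose core is CACGTG, and promoter sequences are shown here because members with and without that element rose. RefSeq promoters (GRCm38.p6, 250 bases before to 50 after the start site) could be matched for 27 of the 36 members. The letters TCACGTG, searched on both strands, occurred in 7 of these members (25.9%), namely *Ctsa*, *Ctsd*, *Lamp1*, *Atp6v0b*, *Atp6v0d1*, *Atp6v0e* and *Atp6v1a*, and in 4.29% of the 27025 genes with a promoter in the table. Counted by promoter, the letters were in 7 of 31 promoters of members and in 3.77% of all 32851 promoters. A palindromic TCACGTGA counts as a match on each strand. Of the 27 matched members 18 were called higher, as were 31.3% of all genes tested. All 7 genes were among these 18, and the other 11 held no match. Calls over all genes with the letters were not counted, and a link between the letters and the change was not tested. With the core CACGTG alone, which every TCACGTG contains, 9 of the 27 members held a match against 8.09% of all genes, and the additional 2 were *Ctsl* and *Ctsf*. A match describes letters in a window and is no evidence of binding. The stretches below lie before the start site, on the strand of the gene, with matches in capitals. *Lamp1* (chr8:13159086-13159160, plus strand) is shown for its 4 matches, *Atp6v0b* (chr4:117887330-117887389, minus strand) for 2 matches, *Ctsd* (chr7:142387887-142387947, minus strand) and *Atp6v1a* (chr16:44139359-44139419, minus strand) for a palindromic match in a protease and a pump gene, and *Ctss* (chr3:95526711-95526785, plus strand), the member with the largest increase, for comparison since its window held none.
Lamp1: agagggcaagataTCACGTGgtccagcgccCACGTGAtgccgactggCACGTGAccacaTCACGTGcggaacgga
Atp6v0b: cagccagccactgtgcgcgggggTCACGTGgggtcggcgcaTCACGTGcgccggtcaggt
Ctsd: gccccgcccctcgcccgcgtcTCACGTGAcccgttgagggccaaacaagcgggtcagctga
Atp6v1a: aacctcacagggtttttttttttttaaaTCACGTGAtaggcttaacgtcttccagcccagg
Ctss: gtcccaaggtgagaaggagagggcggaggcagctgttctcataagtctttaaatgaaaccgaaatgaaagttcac

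Among the cysteine cathepsins, *Ctss* and *Ctsc* increased most. *Ctss* (NCBI gene 13040) encodes cathepsin S, which trims the invariant chain in antigen-presenting cells and stays active at neutral pH. It had 945, 906 and 929.6 FPKM in the MSC-derived libraries and 10.2, 7.97 and 7.62 FPKM in the endogenous ones. The groups were far apart, with a log2 fold change of 6.64 ± 0.13 (SE, adjusted p = 5.87e-08), and 0.784% of all genes tested had a change at least as high. *Ctsc* encodes cathepsin C, or dipeptidyl peptidase I, which activates the serine proteases of granulocytes and cytotoxic lymphocytes. Its levels were 520.4, 537 and 535 FPKM in the MSC-derived libraries against 13, 10.6 and 9.59 FPKM, a log2 fold change of 5.36 ± 0.14 (SE, adjusted p = 1.15e-07). By mean FPKM *Ctss* was at rank 5892 of all genes in the endogenous cells and rank 96 in the MSC-derived cells, and *Ctsc* was at ranks 5049 and 192.

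*Ctsb*, which encodes cathepsin B, a protease of both endo- and exopeptidase activity found in most cells, was the most highly expressed member in both groups. It had 5541, 5466 and 5472 FPKM in the MSC-derived libraries, where it ranked 15 among all genes, and 378, 460 and 463 FPKM in the endogenous libraries. The log2 fold change was 3.53 (standard error 0.10, adjusted p = 1.38e-07). *Ctsz*, encoding the carboxypeptidase cathepsin X, had 819 to 845 FPKM against 112 to 152 FPKM, a log2 fold change of 2.47 ± 0.13. The aminopeptidase gene *Ctsh* had 309 to 332 FPKM against 73.6 to 108 FPKM, a log2 fold change of 1.63 ± 0.14. *Ctso* changed least of those called higher, with 19.4 to 20.2 FPKM against 10.1 to 12.8 FPKM and a log2 fold change of 0.70 ± 0.11 (SE, adjusted p = 0.000996), and it was not called on the TPM scale (adjusted p = 0.162).

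None of the remaining cysteine cathepsins was called higher. *Ctsl* encodes cathepsin L, a potent endopeptidase of many cell types, and had 137, 144 and 129 FPKM in the MSC-derived libraries and 129, 142 and 145 FPKM in the endogenous ones. These ranges overlapped, and the log2 fold change of -0.14 ± 0.08 (SE, adjusted p = 0.148) was not called. Its sign was the same in every fit, and it was called lower without endogenous replicate 1 (log2 fold change -0.25, adjusted p = 0.000129) and on the TPM scale (-0.58, adjusted p = 0.000201). *Ctsf*, encoding cathepsin F, had 42.9, 45.2 and 47.0 FPKM against 49.7, 65.1 and 61.2 FPKM and was the only cathepsin called lower, with a log2 fold change of -0.50 ± 0.12 (SE, adjusted p = 0.00742). *Ctsw*, a gene of cytotoxic lymphocytes, had 1.3 to 1.91 FPKM in the MSC-derived libraries, which lay within the 0.34 to 2.01 FPKM of the endogenous libraries. Its log2 fold change of 0.13 (adjusted p = 0.872) turned to -0.38 without endogenous replicate 1 and to -0.06 on the TPM scale, neither of which was called.

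The 3 cathepsins of other classes were all called higher, as were 31.3% of all genes tested. *Ctsd* (NCBI gene 13033) encodes cathepsin D, the main aspartic protease of lysosomes. It had 4723, 4562 and 4665 FPKM in the MSC-derived libraries against 232, 324 and 331 FPKM, a log2 fold change of 3.85 ± 0.15 (SE, adjusted p = 5.69e-07), and ranked 17 among all genes in the MSC-derived cells compared with 268 in the endogenous cells. *Ctsa*, encoding the serine carboxypeptidase that protects β-galactosidase and neuraminidase, had 518 to 539 FPKM against 74.4 to 103 FPKM, a log2 fold change of 2.38 ± 0.14. *Ctse* encodes the second aspartic protease, known from the stomach, blood and immune cells. Its values of 64.5, 61.6 and 63.6 FPKM were all above the 7.56, 17.1 and 12.7 FPKM of the endogenous libraries, which differed among themselves by more than 2-fold, and the log2 fold change was 2.22 (standard error 0.27, adjusted p = 0.000250).

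**Figure D2:**
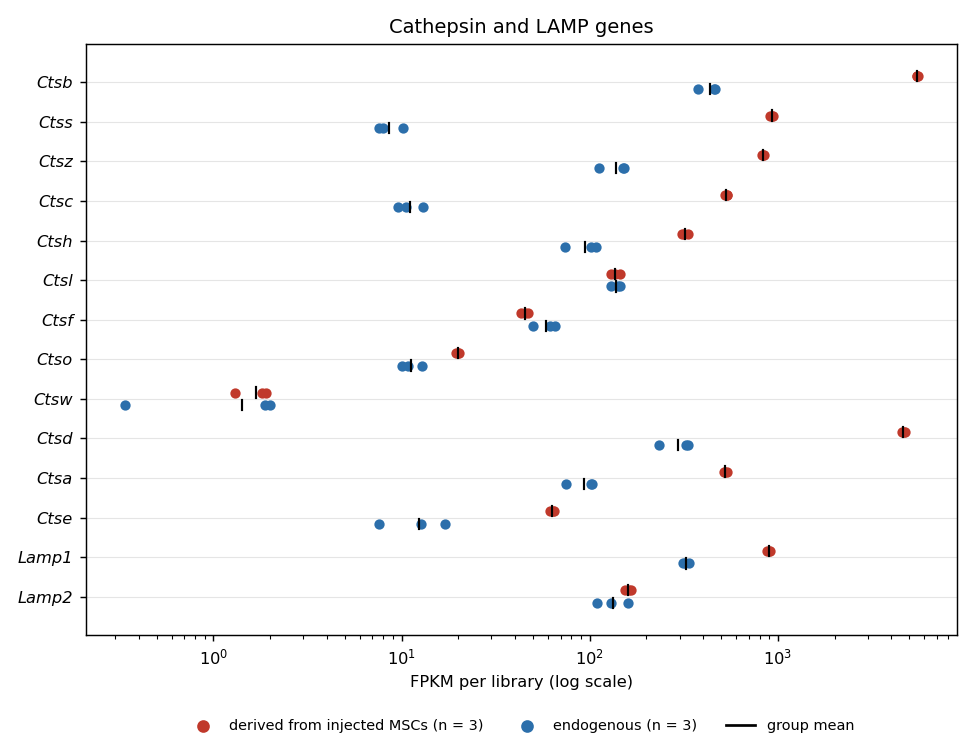
FPKM of each cathepsin and LAMP gene in the 3 MSC-derived (red) and 3 endogenous (blue) libraries on a log scale, with black lines at group means. *Ctss* and *Ctsc* show the widest gaps, 906 to 945 against 7.62 to 10.2 FPKM for *Ctss*, whereas *Ctsl*, *Ctsw* and *Lamp2* overlap.

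The make-up of the cathepsin transcripts differed as well as their amount. The 12 genes together held 1.69%, 1.66% and 1.67% of all TPM in the MSC-derived libraries and 0.216%, 0.244% and 0.245% in the endogenous ones, a ratio of 7.11 between group means in TPM and of 10.4 in FPKM. *Ctsb* and *Ctsd* together took 74.9% ± 0.0716 of this sum in MSC-derived and 56.2% ± 0.374 in endogenous libraries (SD, n = 3). *Ctss* took 6.84% ± 0.0720 against 0.681% ± 0.216, whereas *Ctsl* took 1.01% ± 0.0595 against 10.8% ± 0.894 and *Ctsf* 0.332% ± 0.0174 against 4.52% ± 0.155. The shares of *Ctsz*, *Ctsh*, *Ctso*, *Ctsa* and *Ctse* were lower in the MSC-derived cells although the genes themselves were called higher, and that of *Ctsz* was 6.15% ± 0.0337 against 10.6% ± 0.303. The groups did not overlap in the share of any of the 12 genes. These shares are a description, with no test, since 3 libraries against 3 allow no exact permutation p below 0.10. *Ctsk*, the collagen-degrading cathepsin of osteoclasts that lies outside the rule, had 118, 125 and 128 FPKM against 97.8, 121 and 131 FPKM (log2 fold change -0.04 ± 0.12, adjusted p = 0.805), and its ranges overlapped. *Ctsg*, also left out by the rule, was called higher, with 150.4, 151 and 135 FPKM against 19.5, 20.1 and 18.8 FPKM (log2 fold change 2.77 ± 0.09, adjusted p = 3.02e-07).

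The catalytic sector V1 of the proton pump had 8 genes higher, 1 lower and 1 not called of 10 tested. Of all genes tested, 31.3% were higher and 30.3% lower. *Atp6v1b2* (NCBI gene 11966) encodes the widely expressed isoform of subunit B, which with subunit A forms the ring that splits ATP. It had 131, 132 and 132 FPKM in the MSC-derived libraries and 28.7, 20.6 and 23.8 FPKM in the endogenous ones, and its log2 fold change of 2.31 ± 0.12 (SE, adjusted p = 2.73e-06) was the highest of the V1 genes. The log2 fold changes of *Atp6v1g1*, *Atp6v1f*, *Atp6v1e1*, *Atp6v1c1* and *Atp6v1d*, which encode subunits of the stalks and the rotor, lay between 1.03 and 1.34. *Atp6v1a*, encoding the partner of subunit B in the ring, had 43.9, 44.2 and 45.4 FPKM against 37.9, 22.5 and 22.1 FPKM. Endogenous replicate 1 lay much closer to the MSC-derived libraries than the other two did, and the log2 fold change was 0.58 (standard error 0.20, adjusted p = 0.0387). *Atp6v1h*, encoding a regulatory subunit, showed the same order, with 46.9, 52.0 and 49.6 FPKM against 39.9, 25.3 and 28.4 FPKM and a log2 fold change of 0.51 ± 0.17 (SE, adjusted p = 0.0305). Neither *Atp6v1a* nor *Atp6v1h* was called when an MSC-derived library or endogenous replicate 2 or 3 was dropped, with adjusted p-values of 0.0906 to 0.111 and 0.0624 to 0.0943, or on the TPM scale (adjusted p = 0.552 and 0.606).

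Isoform genes of V1 were low in both groups. *Atp6v1c2* encodes an isoform of subunit C known from kidney and lung, and had 4, 0 and 0 counts in the MSC-derived libraries and 54, 88 and 91 counts in the endogenous ones. Per sequenced count, with the libraries of a group pooled, the endogenous level was 56.5 times the MSC-derived level. The exact 95% interval of 21.8 to 209 holds counting error only and leaves out the spread between libraries. The gene was called lower by edgeR (adjusted p = 0.00168). Reads of *Atp6v1c2* and of *Pdia6*, whose exons overlap its exons on the opposite strand, cannot be told apart if counting ignored strand. *Atp6v1g2*, an isoform of subunit G known from neurons, had 1.99, 2.2 and 1.85 FPKM against 0.03, 1.38 and 0.82 FPKM, and the log2 fold change of 1.35 ± 0.91 (SE, adjusted p = 0.234) was not called. The 2 members that did not pass the filter were *Atp6v1e2*, with 0 counts in each MSC-derived library and 23, 3 and 0 in the endogenous ones, and *Atp6v1g3*, with at most 2 counts in any library.

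In the membrane sector V0, 5 of 8 genes were higher and 2 lower, where 31.3% and 30.3% of all genes tested were. *Atp6v0c*, encoding the proteolipid that forms most of the proton-carrying ring, had the highest level of all pump genes, with 1120, 1082 and 1050 FPKM against 243, 389 and 371 FPKM and a log2 fold change of 1.54 ± 0.16 (SE, adjusted p = 0.000106). *Atp6v0b*, encoding the other ring proteolipid, rose from 56.8 to 89.1 FPKM in the endogenous libraries to 296 to 308 FPKM (log2 fold change 1.85 ± 0.16). *Atp6v0d1*, encoding the subunit that joins the ring to the rotor, and *Atp6v0e* had log2 fold changes of 1.40 and 0.96. *Atp6v0a1* encodes a widely expressed isoform of subunit a, past which the protons flow, and had 54.8, 55.0 and 53.6 FPKM against 11.8, 12 and 14.1 FPKM. Its log2 fold change of 1.93 ± 0.08 (SE, adjusted p = 9.58e-07) was the highest of the V0 members.

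Other isoforms of V0 subunits went the opposite way or were not called. *Atp6v0a4* encodes the isoform of subunit a known from the acid-secreting cells of the kidney and from the inner ear. It had 0.32, 0.41 and 0.57 FPKM in the MSC-derived libraries (25, 30 and 39 counts) and 9.13, 5.84 and 5.05 FPKM in the endogenous libraries (666, 430 and 389 counts). The groups were well separated, with a log2 fold change of -4.05 ± 0.33 (SE, adjusted p = 2.84e-05). Exons of *Atp6v0a4* overlap those of *D630045J12Rik* on the same strand and of *Tmem213* on the opposite strand, and its counts were not whole in 3 libraries. Some reads of *Atp6v0a4* may therefore not be told apart from reads of those genes. *Atp6v0e2*, an isoform of the small subunit e, had 0.40, 0.99 and 0.44 FPKM against 3.67, 8.19 and 7.17 FPKM, a log2 fold change of -3.50 ± 0.49 (SE, adjusted p = 0.000560). *Atp6v0a2*, the isoform of subunit a known from the Golgi and endosomes, had 10.2, 10.4 and 10.9 FPKM against 11.4, 9.75 and 8.75 FPKM. Its log2 fold change of -0.04 ± 0.11 (SE, adjusted p = 0.776) had a positive sign on the FPKM scale, when scaled by library totals only and without endogenous replicate 1, and on the TPM scale it was called lower (-0.45, adjusted p = 0.0388).

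**Figure D3:**
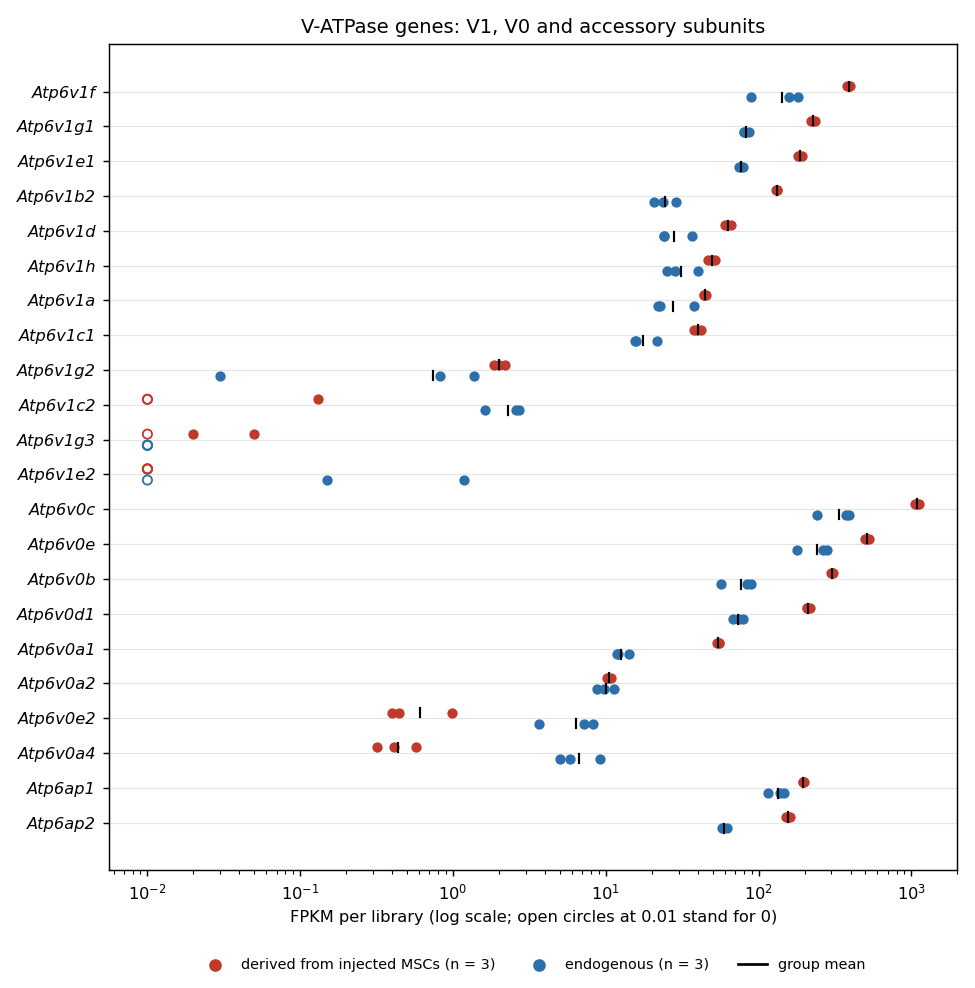
FPKM of each V-ATPase gene in the 3 MSC-derived (red) and 3 endogenous (blue) libraries on a log scale, with open circles at the left for values of 0 and black lines at group means where no value is 0. The main genes of each subunit lie higher in the MSC-derived libraries, and *Atp6v1c2*, *Atp6v0e2* and *Atp6v0a4* lie lower there, with 5.05 to 9.13 against 0.32 to 0.57 FPKM for *Atp6v0a4*.

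The isoform make-up of subunit a differed between the groups. *Tcirg1*, the remaining gene of the subunit, encodes the a3 isoform of osteoclasts and of secretory lysosomes, does not match the rule's symbols, and had 96.1, 91.0 and 84.8 FPKM against 17.8, 12.2 and 12.3 FPKM (log2 fold change 2.57 ± 0.16, adjusted p = 5.61e-06). Of the summed TPM of the 4 genes, *Tcirg1* took 58% ± 1.5 in MSC-derived and 32.3% ± 2.75 in endogenous libraries (SD, n = 3). *Atp6v0a4* took 0.281% ± 0.0911 against 15.2% ± 2.88, and *Atp6v0a2* 6.74% ± 0.504 against 23% ± 1.41, with no overlap for these 3 genes. The share of *Atp6v0a1* overlapped, at 34% to 35.8% against 23.6% to 35%. For subunit C the isoform gene *Atp6v1c2* took 12% ± 4.28 in the endogenous cells, from 7.05% in replicate 1 to 14.7% in replicate 2, and at most 0.339% in an MSC-derived library. For subunit d the share of *Atp6v0d2*, an osteoclast and macrophage isoform left out by the rule, was 2.72% ± 0.223 against 1.76% ± 0.977 and overlapped. The gene itself was called higher, with 5.65, 5.74 and 6.33 FPKM against 1.96, 0.67 and 1.25 FPKM (log2 fold change 2.08 ± 0.37, adjusted p = 0.00195). *Atp6v1e1*, *Atp6v1g1* and *Atp6v0e* made up at least 97.0% of their subunits in every library.

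**Figure D4:**
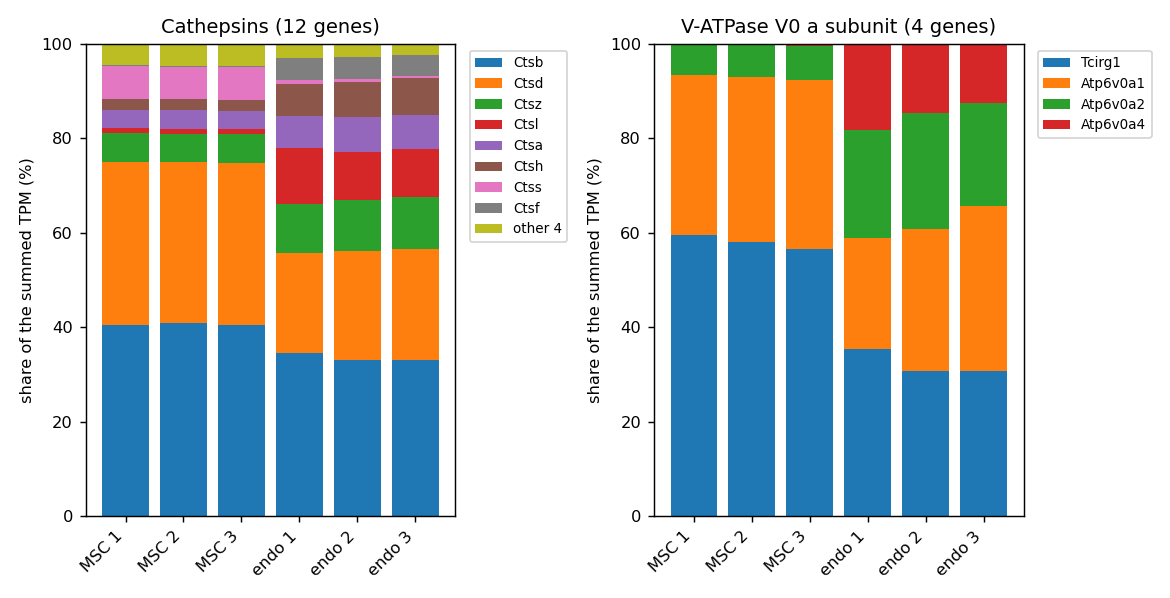
Share of each gene in the summed TPM of the 12 member cathepsins (left) and of the 4 genes of V0 subunit a (right), with a bar per library. *Ctsb* and *Ctsd* fill 74.9% of the left bars in the MSC-derived cells and 56.2% in the endogenous cells, and the *Atp6v0a4* share of the right bars falls from 15.2% to 0.281%.

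Transcript levels of the subunits, with isoforms added together, differed widely within 1 complex. The number of copies of each subunit in the pump was not taken into account. In the MSC-derived cells they ran from 39.9 ± 1.93 FPKM for subunit C and 44.5 ± 0.758 FPKM for subunit A to 1084 ± 34.9 FPKM for subunit c (SD, n = 3), and in the endogenous cells from 19.9 ± 2.82 FPKM for C to 334 ± 79.6 FPKM for c. The ratio of group means was lowest for H (1.59) and A (1.62) and highest for B (5.40). The low end rests on endogenous replicate 1, without which the ratios were 1.84 for H, 1.99 for A and 5.93 for B, and the lowest was that of e, at 1.83 compared with 2.07. Subunits A and B, which form the same ring, were at 27.5 ± 9 and 24.4 ± 4.11 FPKM in the endogenous cells but at 44.5 ± 0.758 and 132 ± 0.633 FPKM in the MSC-derived cells. The 22 V-ATPase members together held 0.452% ± 0.00510 of all TPM in the MSC-derived cells and 0.252% ± 0.0171 in the endogenous cells (SD, n = 3), a ratio of 1.80 in TPM and 2.64 in FPKM.

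Both accessory genes were called higher, as were 31.3% of all genes tested. *Atp6ap2*, which encodes the (pro)renin receptor and helps to assemble the pump, had 152, 160 and 156 FPKM against 62.5, 57.9 and 58.5 FPKM and a log2 fold change of 1.27 ± 0.07 (SE, adjusted p = 2.66e-06). *Atp6ap1*, encoding the glycoprotein Ac45 of the V0 sector, changed less, with 196, 199.5 and 194 FPKM against 116, 138 and 146 FPKM and a log2 fold change of 0.44 ± 0.09 (SE, adjusted p = 0.00477). It was not called on the TPM scale (log2 fold change 0.01, adjusted p = 0.925).

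The LAMPs differed from each other. *Lamp1* encodes the most abundant glycoprotein of the lysosomal membrane and had 909.7, 877 and 898 FPKM against 338, 315 and 319.9 FPKM, a log2 fold change of 1.35 ± 0.06 (SE, adjusted p = 8.73e-07). *Lamp2*, whose product is required for chaperone-mediated autophagy and for the maturation of autophagosomes, had 154, 161 and 165 FPKM in the MSC-derived libraries. Endogenous replicate 1 lay inside that range at 159.6 FPKM, while replicates 2 and 3 lay below it at 109 and 129 FPKM, and the log2 fold change of 0.15 ± 0.15 (SE, adjusted p = 0.386) was not called. Without endogenous replicate 1 *Lamp2* was called higher (0.28, adjusted p = 0.000305), and without replicate 2 and on the TPM scale its sign turned (-0.01 and -0.27, neither called). *Lamp1* made up 84.8% ± 0.583 of the TPM of both genes in the MSC-derived cells and 71.2% ± 3.23 in the endogenous cells (SD, n = 3), without overlap.

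Replicates of the members were compared within groups. Among the 30 members with a mean level of 10 CPM or more, log2 levels of endogenous replicates 2 and 3 lay within 0.44 of each other, and those of the MSC-derived libraries within 0.58. Endogenous replicate 1 differed from their mean by more than 0.5 on the log2 scale in 15 of the 34 members tested, upward in 4 and downward in 11, where 18.4% and 23.7% of all genes tested did so. The 4 higher there were *Atp6v1a* (0.75), *Atp6v0a4* (0.72), *Atp6v1d* (0.58) and *Atp6v1h* (0.57), and among the 11 lower were *Atp6v1f* (-0.91), *Atp6v0c* (-0.60), *Atp6v0e* (-0.60) and *Atp6v0b* (-0.56), so genes of the same pump moved in opposite directions. Longer transcripts tended to lie higher in this library, with exceptions such as *Atp6v1d* at 1.23 kb. Across the 20 V-ATPase members tested, the Spearman correlation of this deviation with effective length was 0.603, across the 34 members 0.543 and across all 14289 genes 0.233, as descriptions across genes that share the same 3 libraries. *Atp6v1f*, the shortest member tested at 0.45 kb, was low, and *Atp6v1a* at 4 kb was high. The part of length in the group comparisons was not tested. Without endogenous replicate 1, 26 members were called higher and 5 lower, the calls of all 25 higher members held, and *Lamp2* and *Ctsl* were added.

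**Figure D5:**
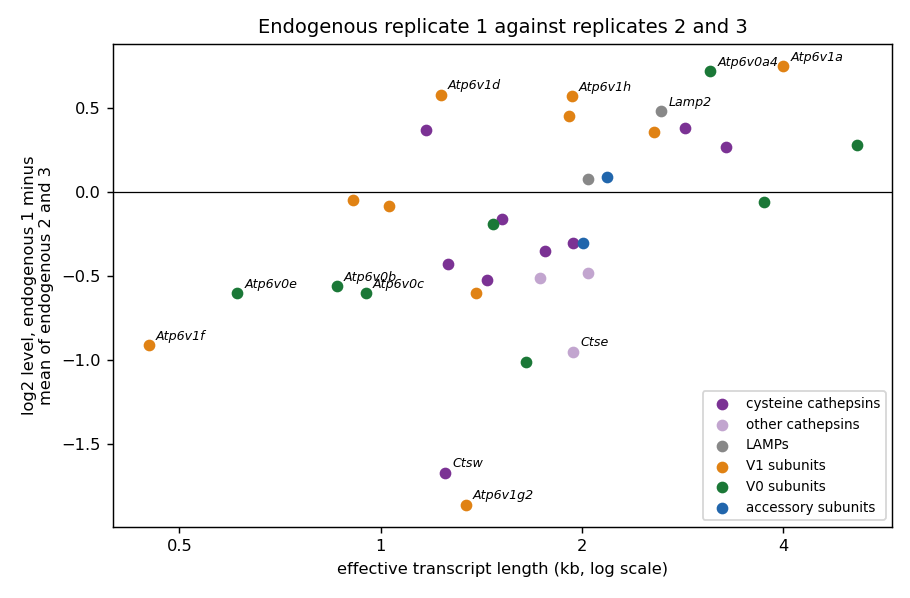
Difference in log2 level between endogenous replicate 1 and the mean of replicates 2 and 3 (vertical axis) against effective transcript length in kb on a log scale (horizontal axis), for the 34 members tested, coloured by role. The shortest gene, *Atp6v1f*, lies at -0.91 and the long *Atp6v1a* at 0.75, with much scatter between.

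The rest of the lysosomal genes were read from written lists. Of 45 genes for lysosomal hydrolases and their cofactors 33 were higher and 3 lower, with a median log2 fold change of 1.16. For this list and the next, the shares over all genes tested were 31.3% higher and 30.3% lower. The largest increases were those of *Rnaset2b* (6.72 ± 0.16), encoding an acid ribonuclease whose reads could be shared with its near-identical copy *Rnaset2a*, and *Lipa* (4.41 ± 0.18), encoding lysosomal acid lipase. *Smpd1*, encoding acid sphingomyelinase, and *Arsb*, which removes sulfate from dermatan and chondroitin sulfate, had log2 fold changes of -0.71 (adjusted p = 0.00925) and -0.69 (adjusted p = 0.00107). Of 28 other genes of lysosome membrane proteins 20 were higher and 1 lower, with a median of 1.01, led by *Cd68* (6.65 ± 0.10) and *Slc11a1* (5.73 ± 0.11), both known from macrophages.

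Of 9 sorting genes 5 were higher and 1 lower, where 31.3% of all genes tested were higher and 30.3% lower. The genes of the mannose 6-phosphate receptors, which carry hydrolases to lysosomes, went in opposite directions, with *M6pr* at 166 to 171 against 33.9 to 38.5 FPKM (log2 fold change 2.1, adjusted p = 4.09e-07) and *Igf2r* at 2.15 to 2.66 against 4.44 to 5.50 FPKM (-1.13, adjusted p = 0.000266). Of 9 genes for assembly and regulation of the pump 4 were higher and 1 lower, a count of higher genes near the share over all genes, led by *Dmxl2* (2.08) and with *Tmem9* at -0.99. All 4 called genes of the Ragulator, which anchors mTORC1 on lysosomes, were higher, and *Lamtor3* was not called.

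All 4 genes of the MiT/TFE transcription factors were called higher, as were 31.3% of all genes tested. These factors are known to bind elements of the kind searched for above. Binding was not measured here, and a part of these factors in the changes of the members was not tested. *Tfeb* had 30, 27.8 and 28.7 FPKM against 9.74, 9.93 and 12.7 FPKM (log2 fold change 1.22 ± 0.12, adjusted p = 8.29e-05), and *Mitf* and *Tfe3* had log2 fold changes of 1.44 and 0.44. *Tfec*, the member known from macrophages, had 15.8, 16.6 and 13.9 FPKM against 2.54, 0.37 and 0.50 FPKM (3.61 ± 0.68, adjusted p = 0.00271). Endogenous replicate 1 again stood apart. Of 9 tested genes for inhibitors of cysteine cathepsins or of serine proteases of granules, 7 were higher and 2 lower. The shares over all genes tested were 31.3% and 30.3%. *Cst6*, encoding a secreted cystatin known from skin, had 0.10 to 0.25 FPKM against 1.84 to 2.35 FPKM (log2 fold change -3.81 ± 0.41, adjusted p = 0.000127). *Cst3*, encoding the secreted cystatin C, had 2718, 2684 and 2642 FPKM in the MSC-derived libraries and 6065, 9127 and 9188 FPKM in the endogenous ones, so that its log2 fold change was -1.72 ± 0.15 (adjusted p = 4.58e-05), while the intracellular inhibitor gene *Cstb* rose (1.06 ± 0.08). *Stfa1* and *Stfa2l1*, stefin A genes of myeloid cells, belong to a family of close copies whose reads RSEM could have divided, so their separate values are uncertain.

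Counts of 7 members were not whole in at least 1 library, as RSEM divides reads that fit several genes, with *Ctsb*, *Ctsa* and *Ctsl* affected in all 6 libraries. In GENCODE M21, exons of 13 of the 36 members overlap exons of another gene, and the strand setting of the counting is not given in the sources used here.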

How the data were processed

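Bulk RNA sequencing of 3 MSC-derived and 3 endogenous libraries was analysed; groups and replicate numbers come from the sample names. Per the study's methods, the authors used SOAPnuke for filtering, HISAT2 and Bowtie2 for alignment and RSEM for quantification. The submitters' processing notes name Bowtie2 2.2.5, RSEM 1.2.12 and the build mm9, versions that differ from those in the methods. The deposited expected counts are not normalized. The deposited FPKM is scaled for the length of the transcript and the size of the library, and the deposited TPM sums to 1000000 per library. A deposited signal, the expected count times 1 factor per library, was left aside, as were 8 columns holding averages of a group.

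Expected counts were rounded, which changed 20.6% of values, and compared by glmQLFit and glmQLFTest of edgeR 4.0.16 (R 4.3.3) after filterByExpr and TMM over 14289 genes with Benjamini-Hochberg adjustment and a threshold of 0.05, after the script had been tested on simulated counts. The standard error is the log2 fold change divided by the square root of F. FPKM is given per library, sums over markers and over the genes of a subunit use FPKM, and shares use TPM. Sums over cathepsins, V-ATPase genes and LAMPs are given in TPM, FPKM and TMM-scaled counts per length. Effective length was taken from count, FPKM and library total. Promoters came from RefSeq (GRCm38.p6), and no coordinates of the deposited build are given. Figures were drawn with matplotlib 3.10.9.

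The members and lists were chosen with earlier results of these data known. Every member could be named; other genes named are among the 2 largest changes in either direction of each lysosomal list, the MiT/TFE genes, the genes left out by the rule and *Tcirg1*, and *Lamtor3*, *Cstb* and the single marker genes were chosen after their values were seen. Alternatives were DESeq2 1.42.0, other normalizations and filters, limma 3.58.1 with FPKM after adding 1 or 0.1 on the log2 scale, a block for the replicate number, fits that each lacked 1 library, and a threshold of 0.001. Limma on log2(TPM + 1) was added after the data were seen, as were subunit ratios without endogenous replicate 1. Same-numbered samples come from different mice, and the correlations of their deviations from the group means were 0.0129, 0.00221 and 0.0178, so the number was not used as a pairing.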

Additional observations from a re-analysis of the deposited data

How the results depend on the processing

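Of the 34 members tested, 25 kept their direction and call in every alternative fit with 0.05 as the limit of the adjusted p. The count of higher members was 25 in every other normalization, filter and test on counts and with the replicate number as a block, 23 to 26 when a library was left out, and that of lower members 4 and 4 to 5. With the replicate number as a block, 4103 genes were called higher and 3920 lower, and 25 members higher and 4 lower. The stricter limit of 0.001 on the adjusted p left 2134 genes higher and 2380 lower, with 19 members higher and 2 lower. The sign of *Atp6v0a2* turned to 0.07 with library totals only, to 0.08 in both limma fits on FPKM and to 0.01 without endogenous replicate 1. The sign of *Ctsw* turned to -0.38 without that library and to -0.06 on log2(TPM + 1), and that of *Lamp2* to -0.01 without endogenous replicate 2 and to -0.27 on log2(TPM + 1). None of these turned values was called. When each library was left out in turn, the log2 fold change ranged from -0.12 to 0.01 for *Atp6v0a2*, from -0.38 to 0.42 for *Ctsw* and from -0.01 to 0.28 for *Lamp2*. The ratio of summed levels was 7.11 for cathepsins in TPM, 10.4 in FPKM and 9.54 in TMM-scaled counts per length. It was 1.80, 2.64 and 2.40 for V-ATPase genes, and 1.56, 2.31 and 2.13 for LAMPs. TPM forces equal sums, whereas FPKM sums differ between the groups. *Atp6v1g2* was called higher in limma on log2(FPKM + 1) alone (adjusted p = 0.0312).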
